A study of Rattus norvegicus with 8 samples.

Results

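Ccnd1, E2f3 and Bmi1 are proliferation genes with regions listed as lower in an assay of N6-methyladenosine (m6A). The comparison was of rat vascular smooth muscle cells (VSMCs) under forced expression of Mettl3 with control cells. The assay was MeRIP-seq: an antibody against m6A pulls methylated pieces out of fragmented RNA, and these are sequenced next to input RNA that was not enriched. The cells were primary rat VSMCs of 2 kinds, Mettl3-overexpressing cells and control cells with a vector, each with 2 immunoprecipitated and 2 input libraries (8 in all). Nothing in the labels gives the promoter of the transgene, the dose of vector, the time after delivery, or whether libraries with the same treatment were made from separate animals or cultures. The regions were found by gene name: every row of the authors' 2 tables of differential regions whose gene name is exactly Ccnd1, E2f3 or Bmi1 was taken. This gave 4 regions of the 1967 listed, 1 in Ccnd1, 2 in E2f3 and 1 in Bmi1, and all 4 stood in the table of lower regions. The 3 genes were chosen because their folds in this same comparison were large, so their folds and p-values are given as a description.

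The members act at successive steps of the decision to divide. Cyclin D1, the product of Ccnd1, is made in response to growth factors and activates CDK4 and CDK6, which phosphorylate the retinoblastoma protein. Phosphorylated retinoblastoma protein releases E2F transcription factors, of which E2F3 is an activating one, and these switch on genes of DNA replication. BMI1 is a RING-finger subunit of Polycomb repressive complex 1 and is known for silencing the Cdkn2a locus, which encodes an inhibitor of CDK4 and CDK6. In the arterial wall, exit of VSMCs from quiescence through this pathway accompanies thickening of the intima after injury. METTL3 is the catalytic subunit of the complex that writes m6A on messenger RNA.

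E2f3 and Bmi1 both lie on chromosome 17. RefSeq (GRCr8) held an upstream window for these 2 of the 3 genes, so the stretch before the start of each is printed. The windows are the 250 bases before the start, at chr17:34810166-34810415 for E2f3 and chr17:86243994-86244243 for Bmi1, both on the plus strand. These positions belong to GRCr8 and cannot be compared with the positions of the m6A regions, which are on another build. Capitals mark a match to an E2F site, searched on both strands as TTTCCCGC, TTTGGCGC, TTTCGCGC and TTTGCCGC.
E2f3: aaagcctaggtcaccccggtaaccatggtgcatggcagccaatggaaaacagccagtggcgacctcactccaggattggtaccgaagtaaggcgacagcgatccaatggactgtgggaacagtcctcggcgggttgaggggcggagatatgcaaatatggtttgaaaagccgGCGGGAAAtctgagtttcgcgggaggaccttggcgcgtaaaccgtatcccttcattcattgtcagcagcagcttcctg
Bmi1: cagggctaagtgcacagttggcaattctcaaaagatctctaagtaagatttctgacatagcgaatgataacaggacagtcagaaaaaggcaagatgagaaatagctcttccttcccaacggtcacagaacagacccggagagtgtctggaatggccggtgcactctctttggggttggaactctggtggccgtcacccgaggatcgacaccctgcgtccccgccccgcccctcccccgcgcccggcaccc
The E2f3 window held 1 match, GCGGGAAA, starting 78 bases before the gene's start, and the Bmi1 window held 0. Over all 33469 windows of this length in the same table, 1.73% held a match. The share was 3.49% for genes with a listed lower region (41 of 1175) and 1.16% for those with a passing one (2 of 173). The match in the chosen member E2f3 is counted in both sets. These 2 sets had a median GC content of 59.6% and 59.2%, against 51.2% over all windows. The shares were not adjusted for base composition or for the type of gene. The 2 printed windows were similar in base composition, with a GC content of 55.2% in E2f3 and 56.0% in Bmi1. The match describes these letters and says nothing of binding, and the m6A data do not measure it.

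Each of the 3 genes had 1 strongly lower region. In the authors' deposited table the fold, which there is vector over overexpression, was 126.8 for Ccnd1, 122.1 for the leading E2f3 region and 121.9 for Bmi1. On the log2 scale, overexpression against vector, these are -6.99, -6.93 and -6.93, computed from the authors' deposited table. They were the 4th, 5th and 6th largest folds of 1710 lower regions and kept those places among the 223 lower regions that passed. A region is said to pass when the authors' adjusted p is under 0.05, which 13.0% of the listed lower regions did (5.5% at 0.01). All 3 leading regions passed at both thresholds, and the second E2f3 region did not pass at either. Because the genes were chosen on this contrast, nothing is read from 3 of 4 against that background. The tables hold no value per library, so no spread between replicates can be given. No source used here says how the input libraries entered the fold, and less methylation, less RNA of the gene per cell and fewer cells with that RNA cannot be told apart.

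**Figure D1:**
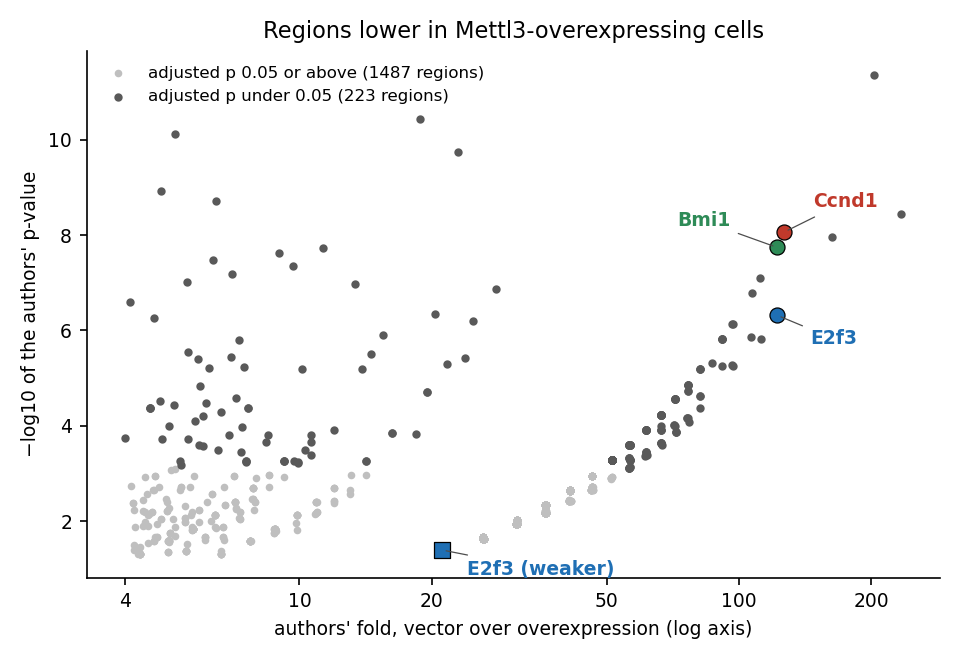
Each point is 1 of the 1710 lower regions, with the authors' fold (vector over overexpression, log axis) on the horizontal axis and −log10 of the authors' p-value on the vertical axis. Dark points have an adjusted p under 0.05, and the 3 leading regions sit at folds of 121.9 to 126.8 while the weaker E2f3 region (square) sits at 21.1.

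Ccnd1 had a single listed region, on chromosome 1 from 224969562 to 224969658 (97 bp), in transcript NM_171992. In the authors' deposited table this region had a p of 8.60e-09, the 8th smallest among lower regions, and 7.28e-06 after adjustment. The fold has a single decimal, as it would if 0.1 were added to the means of both conditions and the lower mean were 0. Read in that way, the vector mean of the Ccnd1 region was 12.58. The value of 1 read over both vector libraries was found to be 0.503, so that mean stands for 25 reads. Such implied reads are worked out from the folds and are not listed by the authors. The Ccnd1 region thus had 0 implied reads in overexpressing cells, against 25 in vector cells. Its nearest listed regions, in Shank2 at 535 kb on one side and Lrp5 at 787 kb on the other, were lower without passing; the authors' deposited table gives them adjusted p-values of 0.112 and 0.222.

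Bmi1 also had a single listed region, on chromosome 17 from 87091362 to 87091418 (57 bp), in transcript NM_001107368. In the authors' deposited table this region had a p of 1.81e-08, the 10th smallest among lower regions, and 1.40e-05 after adjustment. The implied reads were 0 in overexpressing cells and 24 in vector cells, from a vector mean of 12.09. The nearest listed regions were those of Trdmt1 and Lyst, 4613 and 5075 kb away, which the authors' deposited table lists as lower with adjusted p-values of 0.222 and 0.248.

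E2f3 had 2 listed regions in transcript NM_001137626, a stronger and a weaker one, and both were listed as lower. The stronger region lay on chromosome 17 from 37715922 to 37716320 (399 bp). In the authors' deposited table this region had a p of 4.80e-07, the 23rd smallest among lower regions, and 0.000211 after adjustment. It had 0 implied reads in overexpressing cells and 24 in vector cells, from a vector mean of 12.11. The weaker region lay from 37642362 to 37642627 (266 bp), and the authors' deposited table gives it a fold of 21.1 and a p of 0.0402, or 0.248 after adjustment. Its implied support was 0 reads in overexpressing cells and 4 in vector cells. That is the smallest total among all lower regions with an implied 0, and 398 of them shared it, so the weaker region stood at the edge of what the authors listed. The 2 E2f3 regions were 73.3 kb apart with no other listed region between them. Their implied vector reads differed 6-fold.

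E2f3 was 1 of 132 genes with exactly 2 lower regions. In 22 of these genes, E2f3 included, 1 region passed and the other did not. In 6 both passed, and in 104 neither did. The distance between the 2 regions had a median of 26.3 kb over these genes (quartiles 6.24 and 89.1 kb). With E2f3 counted, 41 of the 132 had a distance at least as large as that of E2f3. Genes were grouped by name, and the largest distance was 2300 kb. Pairs at separate loci with the same name were not removed from these counts. Whether the E2f3 regions lie in a coding exon or a UTR is not stated in the table, and no source used here names the build of the coordinates.

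The 3 leading regions were alike in implied reads and unlike in length. They made up 3 of the 6 lower regions with an implied 0 that had at least 24 implied vector reads. The cut of 24 is the smallest total among the 3 leading regions. Implied reads follow from the fold, for which the genes were chosen, so this count only restates their places by fold. The other 3 of these 6 lay in Mettl3 (46 reads), Slc16a14 (40) and MGC94335 (32). Over the 1415 lower regions with an implied 0 the median was 6 reads, and over the 146 of them that passed it was 12. The leading E2f3 region was 7 times as long as the Bmi1 region at equal implied reads. It was the 10th longest of the 223 passing lower regions, whose median length was 183 bp, while Ccnd1 ranked 174th and Bmi1 205th. Per 100 bp, the implied vector reads were 25.8 for Ccnd1, 6.02 for the leading E2f3 region, 42.1 for Bmi1 and 1.50 for the weaker E2f3 region, against a median of 8 over the passing lower regions with an implied 0. The start of all 4 regions fell on a grid of 20 bp, but the end did so only for the leading E2f3 region. Among listed lower regions 42.9% had their start on that grid, 46.3% their end and 21.7% both edges.

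**Figure D2:**
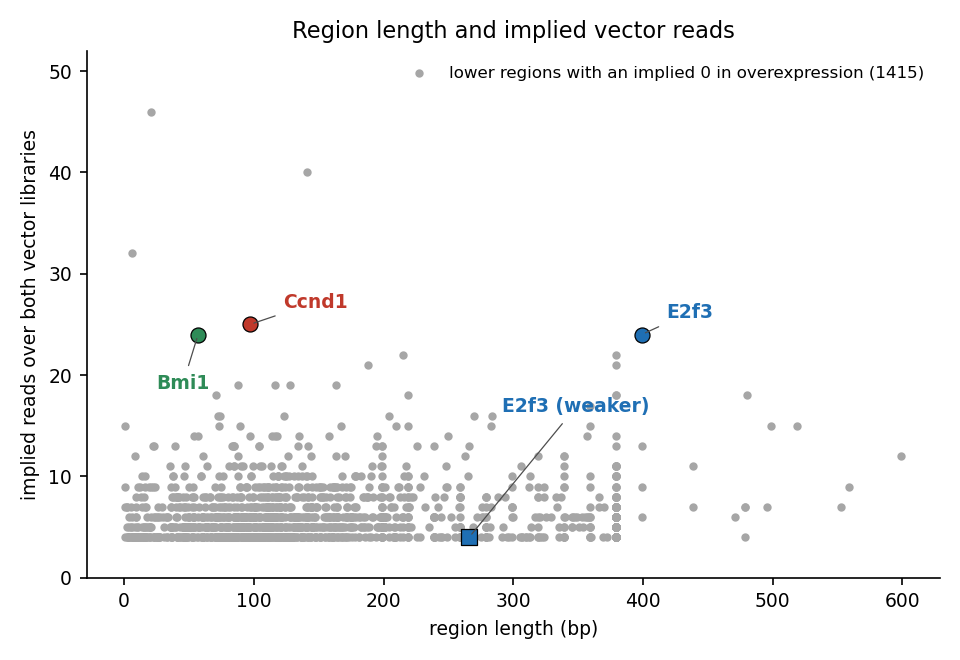
Each point is 1 of the 1415 lower regions with an implied 0 in overexpressing cells, with region length (bp) on the horizontal axis and implied reads over both vector libraries on the vertical axis. Ccnd1, Bmi1 and the leading E2f3 region sit at 24 or 25 reads with lengths of 97, 57 and 399 bp, and the weaker E2f3 region (square) sits at 4 reads.

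At equal implied reads the authors' p-values differed. The leading E2f3 region and the Bmi1 region both had 0 implied reads in overexpressing cells and 24 in vector cells, yet the p of E2f3 was 26.6 times that of Bmi1. Compared with Ccnd1, which had 1 implied read more, the p of E2f3 was 55.8 times as large. The implied vector means differed too, at 12.11 for E2f3 and 12.09 for Bmi1. The same was seen across the table: at each of the other 11 totals of at least 10 reads that at least 2 regions shared, p took more than 1 value, with a largest-to-smallest ratio between 2.48 and 19.8 (median 4.90). The p-values therefore carried something besides the total of reads. How the reads were divided between the 2 vector libraries is not in the table, and its part in these p-values was not tested.

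**Figure D3:**
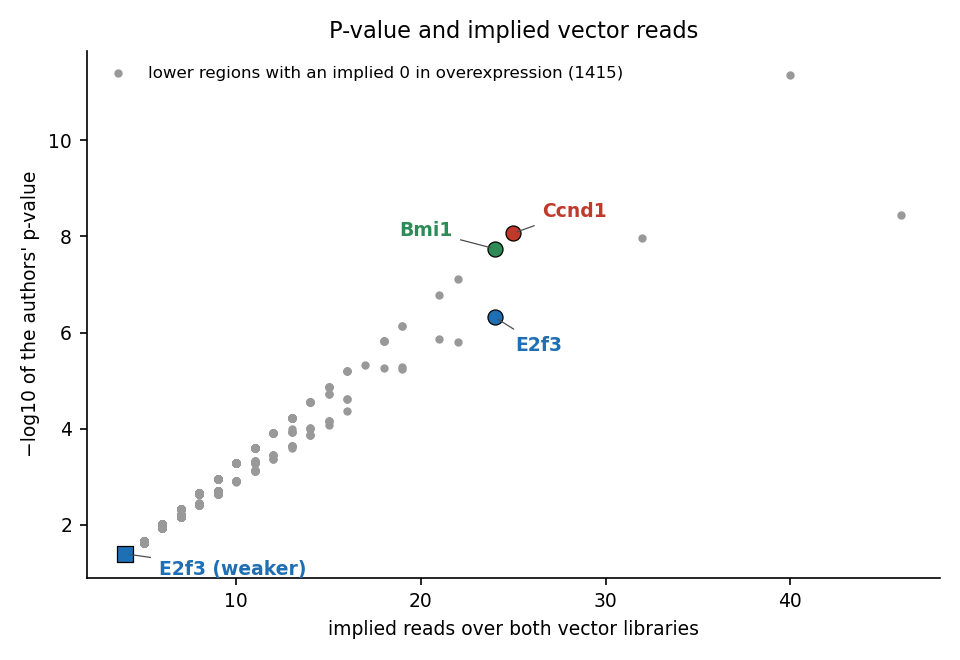
Each point is 1 of the 1415 lower regions with an implied 0 in overexpressing cells, with implied reads over both vector libraries on the horizontal axis and −log10 of the authors' p-value on the vertical axis. At 24 reads Bmi1 stands above the leading E2f3 region, and the weaker E2f3 region (square) lies at the lowest total, 4 reads.

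The size of the folds depended on how the implied 0 and the constant of 0.1 were treated. The folds below with 1 or 3 reads in place of 0 weight each read as the authors' folds do but leave out that constant. Keeping the constant would have given lower folds. With 1 read over both overexpression libraries, the fold was 102.3 for Ccnd1, 98.4 for the leading E2f3 region and 98.3 for Bmi1. With 3 reads, about the upper 95% Poisson limit of a count of 0 and for counting error only, it was 34.1, 32.8 and 32.8 in the same order. In these folds a vector read weighed 4.09 times an overexpression read, and whether this weight matches the depth of the libraries was not analysed here. The ratio of reads alone, with 3 in place of 0, was 8.33 for Ccnd1 and 8 for the other two. For the weaker E2f3 region the fold was 5.45 with 3 reads, and the ratio of reads alone was 1.33. The 3 leading regions stayed close to each other under each treatment, which their near-equal implied reads fix.

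**Figure D4:**
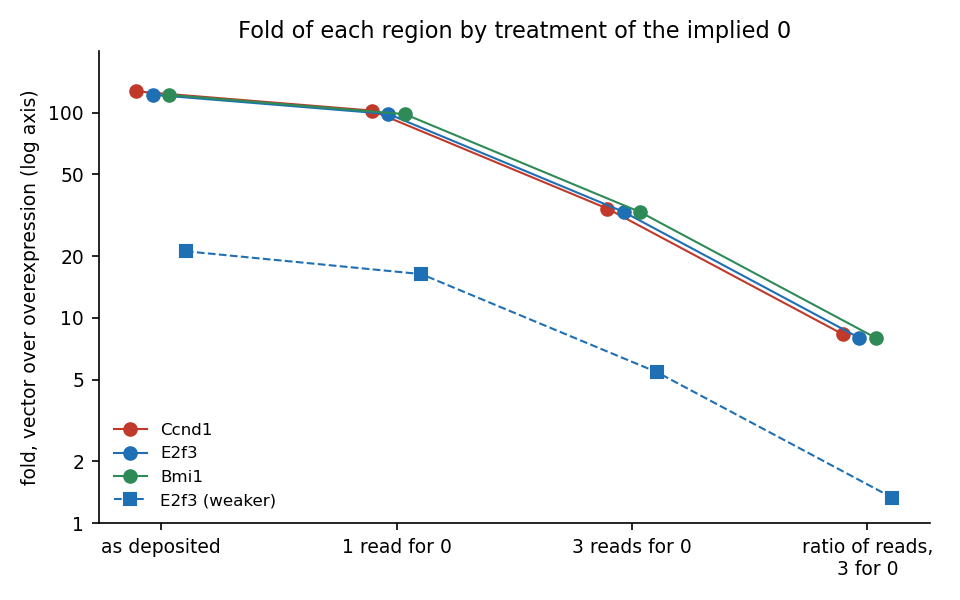
Fold of each of the 4 regions, vector over overexpression, on a log axis. From left: the deposited fold, the fold with 1 and with 3 reads for the implied 0, and the ratio of reads with 3 for 0. Only the deposited folds include the constant of 0.1. Small sideways shifts only separate the points. Lines join the values of 1 region; the 3 leading regions run together to about 8, and the weaker E2f3 region (dashed) ends at 1.33.

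By size of fold, the regions next to these in the table were of mixed function. Directly above stood Mettl3, the overexpressed gene itself, with a fold of 233.6 for a 21 bp region, Slc16a14, a monocarboxylate transporter family member (202.4), and MGC94335 (162.6) in the authors' deposited table. Directly below stood N4bp1 (112.0), the zinc-finger gene Zfp217 (111.8) and Pik3ip1, a negative regulator of PI3K (106.8), in the authors' deposited table. Mettl3 also had 2 higher regions, so its listed regions pointed both ways.

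Counts of listed genes are given beside the 6.82% of RefSeq (GRCr8) protein-coding genes that had a listed region in either direction (1579 of 23154). That share includes genes these cells may not express, and which genes the authors tested is not in the tables, so nothing is read from a list's share. Of the 24 genes of G1/S entry (D-type and E-type cyclins, their kinases, the retinoblastoma family, E2F and DP factors and activators), 2 had a lower region that passed, both of them chosen members, and 0 had a higher one. The third with a region was E2f6, a repressive E2F, for which the authors' deposited table gives a fold of 26.2 and an adjusted p-value of 0.217. The E2f6 region rested on 0 implied reads in overexpressing cells and 5 in vector cells, and 21 genes had no listed region. Of genes with a listed lower region, 13.9% had one that passed.

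None of the 7 CDK inhibitors of the INK4 and Cip/Kip families, nor Mdm2, had a listed region (0 of 8 genes), and Cdkn2a was among them. Among 17 E2F targets of DNA replication 2 had a lower region, neither passing. The authors' deposited table gives Mcm3, a subunit of the replicative helicase, a fold of 31.1 (0.159 as adjusted p) and Orc1, of the origin recognition complex, a fold of 21.2 (0.248 as adjusted p). Among 15 G2/M genes only Mybl2, a transcription factor of late cell cycle genes, had one, for which the authors' deposited table gives a fold of 21.1 and an adjusted p-value of 0.248. The Mcm3 region was 9 bp long, and these 3 regions rested on 0 implied reads in overexpressing cells against 4 to 6 in vector cells.

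Of 32 subunits of Polycomb repressive complexes, 8 had a listed lower region and 0 a higher one, where 88.2% of all listed genes had a lower one. Only the region of the chosen member Bmi1 passed. The remaining 7 were Ezh1 and Ezh2, the methyltransferases of complex 2; its cofactor Jarid2; the complex 1 subunits Rybp, Cbx8 and Scmh1; and Kdm2b, which brings a variant complex 1 to CpG islands. In the authors' deposited table their folds lay between 9.85 (Rybp) and 36.3 (Scmh1 and Jarid2), with a median of 31.2, and their adjusted p-values between 0.112 and 0.248. The authors' deposited table as a whole had, for lower regions, a median fold of 26.2 and a median adjusted p-value of 0.159. Of these 7 regions, 6 had an implied 0 in overexpressing cells against 4 to 7 vector reads, well under the 24 of Bmi1. The Jarid2 region was 1 bp long, and those of Scmh1 and Kdm2b were 14 bp each. Over all 5 lists, 14 of 96 genes had a listed region, all 14 of them lower.

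**Figure D5:**
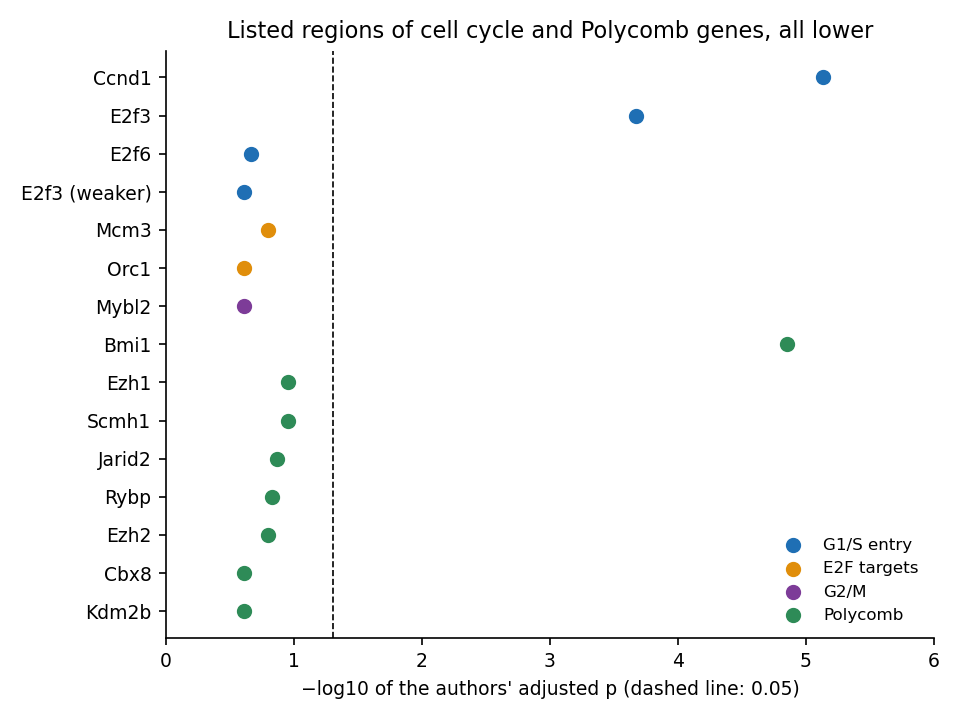
Each row is 1 listed region of a gene from the cell cycle and Polycomb lists, all of them lower in overexpressing cells, with −log10 of the authors' adjusted p on the horizontal axis and the dashed line at 0.05. Ccnd1, the leading E2f3 region and Bmi1 lie to the right of the line and the other 12 regions to the left.

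The pathway annotation in the tables places the members differently. Ccnd1 carried 33 KEGG pathways, E2f3 13 and Bmi1 3. All 13 of E2f3 were also among those of Ccnd1, and the 3 genes shared only MicroRNAs in cancer. The Cell cycle pathway held 10 listed genes with 11 regions, all 11 lower, against 86.9% of all listed regions. These 11 include every region of the chosen members Ccnd1 and E2f3, so nothing is read from that share. MicroRNAs in cancer held 27 lower and 3 higher regions, Pathways in cancer 43 and 6, Transcriptional misregulation in cancer 22 and 5, and the stem cell pluripotency pathway 15 and 1. In that last pathway the 1 gene with a passing higher region was Rest, a transcriptional repressor. In the Cell cycle pathway, whose genes were chosen after their values were seen, the members were not alone in passing. Besides Ccnd1 and E2f3, the acetyltransferase Crebbp did so; the authors' deposited table gives it a fold of 61.2 and an adjusted p-value of 0.0359, from 0 implied reads in overexpressing cells against 12 in vector cells. The other 7 genes did not pass: Smad3, Smc1a, Mcm3, Ep300, Hdac1, Atm and Orc1, for which the authors' deposited table gives adjusted p-values of 0.0787 to 0.248. Of all genes with a listed lower region, 13.9% had one that passed. The passing genes of this pathway include chosen members, so nothing is read from their number. On chromosome 17, which holds E2f3 and Bmi1, 8 of 52 lower regions passed (15.4%), and on chromosome 1, which holds Ccnd1, 32 of 237 did (13.5%).

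Of the smooth muscle markers, 2 of 8 had a listed region, both lower and neither passing, and of 4 endothelial, 4 leukocyte and 4 fibroblast markers 0 had one. Among RefSeq protein-coding genes 6.82% had a listed region. Of all listed genes 88.2% had a lower one, and 13.9% of those had one that passed. Nothing is read from marker counts this small. Cnn1 (calponin) had a fold of 21.1 and Myocd (myocardin) one of 41.1 in the authors' deposited table, from 0 implied reads in overexpressing cells against 4 and 8 in vector cells. The tables list differential regions only, so a marker without a region may still be expressed, and the labelled cell type could not be checked against expression. Depth per library is unknown.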

How the data were processed

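The 2 tables used hold the authors' comparison of Mettl3 overexpression with vector, 1710 lower and 257 higher regions. Per the submitters' processing notes, Trimmomatic 0.36 was used; no source used here names the aligner, build, test or use of input, and region names begin with diffreps, per the file headers. The authors deposited a fold (a ratio, at least 4 in both tables), a p-value, an adjusted p-value over the regions they tested, and a score that equals −log10 of the p-value. Depth per library is unknown, and no replicate spread could be computed, so the tests planned for values per library were replaced by counts of the authors' calls. The members and gene lists were chosen with earlier results of these data known.

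Starts were converted to count from 1. For folds with a single decimal (within 1e-06), means were computed with a constant of 0.1 and 0 in one condition; for lower regions this gives the vector mean. The value of 1 read was the step whose multiples, within 0.015, held the most means under 6 beyond chance: 0.503 for vector (96.6% of means, chance 5.96%) and 0.123 for overexpression (96.7%, chance 24.4%). Tested on simulated data with 3 known steps and 1500 regions each, the search found each step and 100% of the reads. The simulated means were built from whole reads with 0 in the other condition. Whether a single-decimal fold stands for 0 reads and a constant of 0.1 was therefore not tested. An implied 0 was taken for 1415 of the 1423 lower regions with such a fold. Intervals for implied reads were not computed, and 3 reads in place of 0 covers counting error only. Gene IDs of all 3 members matched RefSeq GRCr8. Lists were matched by symbol, and 1 gene of the lists is not reported here. Named genes were the members, every listed gene of the fixed lists, 3 regions next above and below the members in fold, and the nearest regions on the chromosome; the pathway genes were added after seeing the data. Python 3.11.15, pandas 2.3.3 and matplotlib 3.10.9 were used.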

Additional observations from a re-analysis of the deposited data

How the results depend on the processing

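The 3 passing regions of Ccnd1, E2f3 and Bmi1 also passed at an adjusted p under 0.01, at a length of at least 50 bp, and as 3 genes in place of regions, and every listed region gave 4, with 0 higher in each setting tried. These outcomes were fixed by the adjusted p-values and lengths given above, for members chosen on this contrast, and add no support. Leaving out folds with a single decimal left 0 passing, because all 4 regions have such a fold. With 1 read in place of the implied 0 the folds were 102.3 (Ccnd1), 98.4 (E2f3) and 98.3 (Bmi1); with 3 reads 34.1, 32.8 and 32.8; as ratios of reads alone 8.33, 8 and 8. The folds with 1 or 3 reads leave out the constant of 0.1, and the ratios of reads leave out the weight per read too. These differences therefore follow from the value put in place of 0 together with what was left out. Genes of the lists with a lower region numbered 3 at an adjusted p under 0.05 and under 0.01, and 14 over every listed region, by construction of the looser threshold. The 3 that passed were the chosen members themselves. No paired analysis was possible because only the authors' comparison was at hand, without values of single libraries; leaving out a library, and the pseudocount and filter planned for such values, were not run for the same reason. In their place, and chosen after seeing the data, a constant of 1 in the folds gave 13.58 (Ccnd1), 13.11 (E2f3) and 13.09 (Bmi1), and a minimum of 10 implied reads left 3 passing. That minimum could not remove a passing region, since 10 was the smallest implied total among passing lower regions with an implied 0. What depth limits is unknown, since no library size was used; the weaker E2f3 region rests on 4 implied reads.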
